A study of Mus musculus with 16 samples.

Results

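A set of 9 genes of the circadian clock loop is described here in cultured mouse macrophages: the REV-ERB paralogs Nr1d1 and Nr1d2, the activator genes Arntl and Clock, the activating nuclear receptor gene Rora, and the repressor genes Cry1, Cry2, Per1 and Per2. They were chosen by name as the 2 REV-ERB genes and the core of the loop they belong to. They are 9 of 56748 genes in the count table, and all 9 were among the 13438 genes with enough counts to test. Messenger RNA was sequenced from bone marrow-derived macrophages of 4 male wild-type C57BL6 mice, and each mouse gave 1 library to each of 4 groups. The first group received SR9009 at 10 µM for 16 hours and then lipopolysaccharide (LPS) at 100 ng/mL for 6 hours, the second SR9009 alone, the third LPS, and the fourth the vehicle DMSO. SR9009 is a synthetic REV-ERB agonist, and LPS is a bacterial component sensed by Toll-like receptor 4. The labels of the third group name LPS alone, so whether those cells also received DMSO is not known, and a vehicle difference cannot be told apart from LPS in LPS versus DMSO, or from SR9009 in SR9009 and LPS versus LPS. All groups shared the L929 cell supernatant used to grow macrophages from marrow. Each group was sampled once, the hour of harvest is not given in the sources used here, and a level at 1 time cannot be told apart from a phase of a rhythm. In these bulk libraries fewer cells of a type and less RNA per cell cannot be told apart.

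In the mammalian clock, BMAL1 (encoded by Arntl) and CLOCK pair on E-box DNA elements and switch on the Per, Cry and Nr1d genes. PER and CRY proteins then inhibit BMAL1 and CLOCK, which closes the main loop. In a second loop, REV-ERBα (Nr1d1) and REV-ERBβ (Nr1d2) compete with RORα (Rora) for the same response elements in Arntl and other genes, where REV-ERB recruits the NCoR and HDAC3 corepressor and ROR activates. Heme is the natural REV-ERB ligand. In macrophages REV-ERB is known to repress inflammatory and chemokine genes, and LPS signalling is known to alter clock gene expression.

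Total counts ran from 12616442 to 24214863 per library. All 10 macrophage marker genes were measured, with a summed level of 6310 to 11500 CPM (counts scaled to library size). The neutrophil, NK cell, erythroid and mast cell lists each summed to less than 1 CPM in every library, and Ly6g, Ncr1, Eomes and Fcer1a were at 0 in all 16. The 4 endothelial genes (3 tested) moved with LPS, summing to 100 to 196 CPM with SR9009 and LPS, 9.2 to 69.9 CPM with SR9009, 102 to 195 CPM with LPS and 28.7 to 38.7 CPM with DMSO. So did the 4 osteoclast genes (2 tested), at 25.4 to 36.8, 3.76 to 19.2, 18.7 to 43.0 and 10.7 to 15.7 CPM in the same groups. The 7 fibroblast and stroma genes summed to 3.41 to 9.24, 0.203 to 2.41, 6.74 to 15.9 and 1.07 to 2.91 CPM, and the 6 T cell genes to 2.45 to 6.71, 0.139 to 0.604, 3.14 to 5.35 and 0.319 to 0.888 CPM. The part of these lists in the results was not tested. Dendritic cell, B cell and megakaryocyte lists summed to 2.94 to 8.28, 0.305 to 1.87 and 0.428 to 2.48 CPM over all libraries. The SR9009 library of mouse 1 stood apart. It had the lowest total and the fewest genes with a count (13298, the next fewest being 16419), and 1.64% of its counts were mitochondrial, the highest share. Comparisons with the SR9009 group were therefore also made without it. Libraries of mice 1 and 2, and those of mice 3 and 4, were also more alike than other pairs of the same group. The mean chi-square per gene between them was 10.1 to 37.5 in 7 such pairs, against 57.9 to 234 in 14 other pairs that left out that library. The labels give no batch for these mice, so values are given mouse by mouse.

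The promoters show which known clock elements lie near the start sites of these genes. RefSeq windows of 300 bases (250 upstream and 50 downstream of a start site, mouse build GRCm38.p6) were found for 8 of the 9 genes, in 12 windows. Both strands were searched for CACGTG (E-box), CACGTT (an E-box variant), AGGTCA (the nuclear receptor core site that REV-ERB and ROR bind), TAGGTCA (the same site after a T, a subset of the AGGTCA matches), TGACGT (core of the cAMP response element) and TTATGTA (core of the D-box). Of all 32851 windows in the table, 7.15% held CACGTG, 4.68% CACGTT, 16.3% AGGTCA, 2.61% TAGGTCA, 7.51% TGACGT and 2.63% TTATGTA. The whole windows of Nr1d2 and Rora are shown because both genes fell with LPS below. Per2 also fell, but it was the gene without a window, so its promoter was not searched. Capitals mark a match, 5′ to 3′ on the gene's strand.
Nr1d2, chr14:18239057-18239356, minus strand: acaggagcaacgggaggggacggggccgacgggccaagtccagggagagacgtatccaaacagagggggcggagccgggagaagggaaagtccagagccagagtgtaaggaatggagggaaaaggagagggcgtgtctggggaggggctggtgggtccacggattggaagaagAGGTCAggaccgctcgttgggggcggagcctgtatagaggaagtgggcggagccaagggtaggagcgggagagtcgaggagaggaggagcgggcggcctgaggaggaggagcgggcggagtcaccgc
Rora, chr9:68653536-68653835, plus strand: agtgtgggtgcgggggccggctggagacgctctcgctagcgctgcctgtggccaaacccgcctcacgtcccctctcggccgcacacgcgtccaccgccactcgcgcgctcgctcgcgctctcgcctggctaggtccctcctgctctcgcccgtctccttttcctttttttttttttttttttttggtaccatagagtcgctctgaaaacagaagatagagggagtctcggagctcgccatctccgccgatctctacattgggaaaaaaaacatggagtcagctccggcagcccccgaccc
Nr1d2 held 1 AGGTCA at −77 from its start site, and the Rora window held none of the 6 motifs.

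Short stretches around the matches of the other genes are shown to place the E-boxes and receptor sites that the loop is known for. They lie outside the rule for printing promoters, which was limited to genes that changed.
Nr1d1, E-box variant at −28, chr11:98775388-98775417, minus strand: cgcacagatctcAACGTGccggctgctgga
Arntl, receptor site at 32 after a T, chr7:113207530-113207559, plus strand: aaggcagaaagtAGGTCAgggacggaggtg
Cry1, E-box at −60, chr10:85185097-85185126, minus strand: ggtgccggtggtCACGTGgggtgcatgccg
Cry2, E-box variant at −166, chr2:92434218-92434247, minus strand: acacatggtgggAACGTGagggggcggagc
Per1, E-box at −166, chr11:69098771-69098800, plus strand: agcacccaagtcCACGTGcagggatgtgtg
Per1, cAMP element core at −132 of a second window, chr11:69100008-69100037, plus strand: gagctcagcggcTGACGTcggtttccctgg
AACGTG is CACGTT read on the other strand. The first Per1 window also held an AGGTCA at −137, Cry1 a CACGTT at −79, and 1 of 3 Clock windows an AGGTCA at −119. No window held TTATGTA. A match is a string of letters in these windows and does not show that a factor binds there.

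Levels were compared between the genes per transcript length, as the deposited FPKM (fragments scaled to transcript length and library size). With SR9009 and LPS, Cry1 had the highest mean (6.45 ± 0.73, SD, n = 4), followed by Per1 (5.31 ± 1.93) and Nr1d2 (5.17 ± 1.84), which did not differ beyond their spread. With LPS the order was Per1 (7.26 ± 1.62), Cry1 (5.45 ± 0.87) and Nr1d2 (4.89 ± 0.41), and neighbouring genes again lay within their spread. Nr1d2 led with DMSO (12.2 ± 0.48 FPKM), clear of Per1 (4.82 ± 0.80) and Cry1 (3.73 ± 1.11). It also led with SR9009, at 15.8 ± 11.6 FPKM over 4 libraries and 10.0 ± 1.10 FPKM over the 3 without mouse 1. Clock was the fourth in the 2 groups with LPS and in the DMSO group, at 3.72, 3.16 and 3.27 FPKM with SR9009 and LPS, LPS and DMSO. Arntl, Nr1d1 and Cry2 followed at 1.64 to 2.71 FPKM in the groups with LPS. Per2 (0.780 and 0.821 FPKM with SR9009 and LPS and with LPS) and Rora were lowest there, with Rora at 0.760 ± 0.192 FPKM with SR9009 and LPS and 0.484 ± 0.089 FPKM with LPS. Of the REV-ERB paralogs, Nr1d2 was the more abundant per length in every group: Nr1d1 had 1.64 ± 0.40 FPKM with SR9009 and LPS, 2.41 ± 0.85 with SR9009, 2.46 ± 1.84 with LPS and 2.42 ± 0.10 with DMSO. The plot of CPM by library shows all 9 genes in the 16 libraries.

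**Figure D1:**
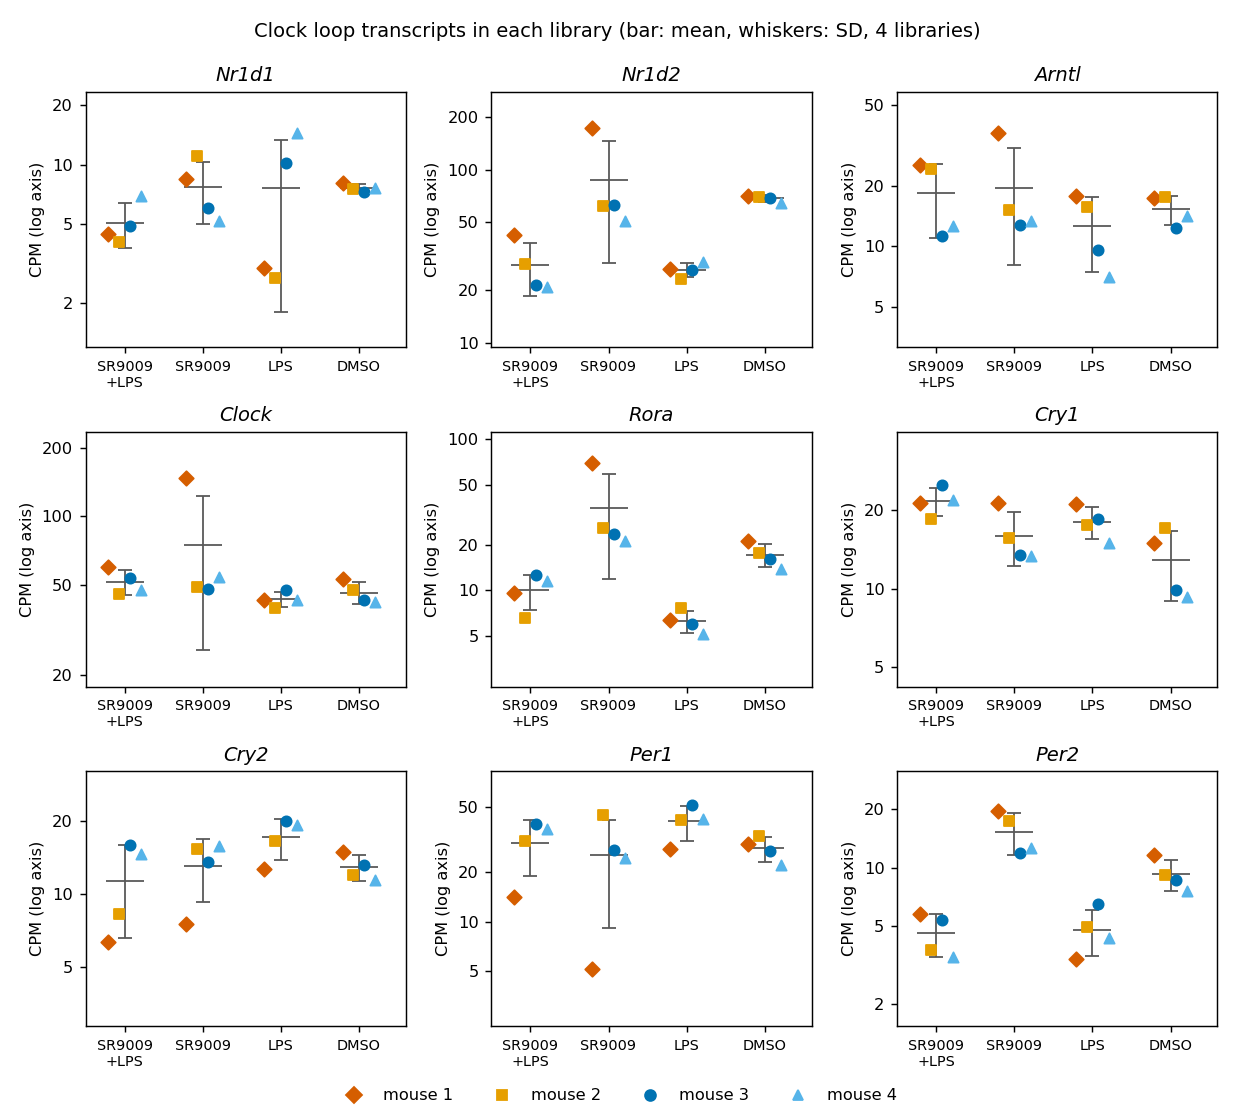
CPM of the 9 clock loop genes in each library (log axis), by group, with mice marked by colour and shape, the bar at the group mean and whiskers at 1 SD (n = 4). Nr1d2, Rora and Per2 sit lower in both LPS-treated groups than in the groups without LPS, and the SR9009 library of mouse 1 lies far above the other 3 for Nr1d2, Arntl, Clock and Rora.

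LPS versus DMSO asks how LPS changed these transcripts without SR9009, and SR9009 and LPS versus SR9009 asks the same in cells given the agonist first. Nr1d2, Rora and Per2 fell in both. By edgeR's quasi-likelihood test at an adjusted p of 0.05, 3 of 9 genes were lower and 0 higher in LPS versus DMSO, where 39.8% of all tested genes were called (20.4% as lower). Against SR9009 alone, cells with SR9009 and LPS had 3 of 9 genes lower and 0 higher, where 30.3% of all genes were called (15.8% as lower). The median log2 fold change of the 9 was −0.10 in LPS versus DMSO, against −0.08 over all tested genes, and −0.53 in SR9009 and LPS versus SR9009, against −0.12 (−0.35 against −0.04 without the SR9009 library of mouse 1). The libraries of the compared groups did not overlap for these 3 genes and overlapped for the other 6, in both comparisons; over all tested genes, 57.6% did not overlap in LPS versus DMSO and 27.3% in SR9009 and LPS versus SR9009. Upper-quartile scaling moved the median of all genes by −0.19 in LPS versus DMSO and by −0.13 in SR9009 and LPS versus SR9009, and the 3 calls held under it. When the fit was repeated on 13645 genes without the SR9009 library of mouse 1, Cry1 was also called (as higher) in both comparisons, where 57.4% and 43.5% of all genes were called. The groups of SR9009 and LPS versus SR9009 then separated for Cry1 as well, making 4 of 9, against 47.0% of all tested genes.

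Nr1d2 encodes REV-ERBβ (ENSMUSG00000021775, chromosome 14, 4230569 to 4265642, GRCm39). It had 41.6, 28.6, 21.4 and 20.9 CPM in the SR9009 and LPS libraries of mice 1 to 4, and 174.8, 61.9, 62.1 and 50.3 CPM in the SR9009 libraries. It had 26.5, 23.3, 26.3 and 29.3 CPM in the LPS libraries, against 70.7, 69.4, 68.8 and 63.6 CPM in the DMSO libraries. Every library with LPS was below every library without it, and the SR9009 library of mouse 1 was far above all others. With LPS it fell to 0.387 of its DMSO level (log2 −1.37, SE 0.34, edgeR adjusted p = 0.00439), and within the 4 mice the log2 ratio lay between −1.57 and −1.12. It fell by 1.63 on the log2 scale in SR9009 and LPS versus SR9009 (SE 0.34, edgeR adjusted p = 0.00181). That decrease was smaller without the SR9009 library of mouse 1 (log2 −0.98, SE 0.20, edgeR adjusted p = 0.00121).

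Rora encodes RORα, the activator that shares response elements with REV-ERB (ENSMUSG00000032238, chromosome 9, 68561068 to 69295528, GRCm39). It had 9.58, 6.54, 12.6 and 11.5 CPM in the SR9009 and LPS libraries of mice 1 to 4, and 69.8, 25.8, 23.6 and 21.1 CPM in the SR9009 libraries. It had 6.32, 7.70, 5.98 and 5.14 CPM in the LPS libraries, against 21.2, 17.7, 16.2 and 13.9 CPM in the DMSO libraries. All 8 libraries with LPS were below the 8 without it. The log2 fold change was −1.46 in LPS versus DMSO (SE 0.35, edgeR adjusted p = 0.00373) and −1.80 in SR9009 and LPS versus SR9009 (SE 0.35, edgeR adjusted p = 0.00108). Without the SR9009 library of mouse 1 the second was −1.16 (SE 0.21, edgeR adjusted p = 0.000454), and that library moved it by more than the others did.

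Per2 encodes a PER repressor and is an E-box target of BMAL1 and CLOCK (ENSMUSG00000055866, chromosome 1, 91343704 to 91387046, GRCm39). It had 5.76, 3.77, 5.41 and 3.50 CPM in the SR9009 and LPS libraries of mice 1 to 4, and 19.5, 17.3, 11.9 and 12.6 CPM in the SR9009 libraries. It had 3.41, 4.95, 6.47 and 4.35 CPM in the LPS libraries, against 11.6, 9.15, 8.59 and 7.63 CPM in the DMSO libraries. The LPS-treated libraries were lower in all 4 mice in both comparisons. Per2 fell by 0.94 on the log2 scale in LPS versus DMSO (SE 0.27, edgeR adjusted p = 0.0105), and leaving out all libraries of mouse 2 or of mouse 4 ended that call (edgeR adjusted p = 0.0652 and 0.0512). The decrease in SR9009 and LPS versus SR9009 was 1.73 (log2 −1.73, SE 0.27, edgeR adjusted p = 0.00016); its log2 value was −1.53 when that group lacked the library of mouse 1 (edgeR adjusted p = 0.000182).

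Cry1, Per1 and Cry2 were not called with LPS when all libraries were used. Cry1, a CRY repressor gene, had 21.4, 18.6, 25.1 and 22.0 CPM in the SR9009 and LPS libraries, 21.3, 15.7, 13.4 and 13.3 CPM with SR9009, 21.2, 17.6, 18.6 and 15.0 CPM with LPS, and 15.0, 17.1, 9.89 and 9.30 CPM with DMSO. It was higher with LPS in 4 of 4 mice in both comparisons, and the groups overlapped. The log2 ratios of mice 1 to 4 were 0.50, 0.04, 0.91 and 0.69 in LPS versus DMSO. They were 0.008, 0.24, 0.90 and 0.72 in SR9009 and LPS versus SR9009, so 1 mouse in each comparison was near 0. The share of all tested genes with 1 direction in 4 of 4 mice was not counted for these comparisons. Its log2 difference was 0.49 in LPS versus DMSO (95% interval −0.01 to 1.00, edgeR adjusted p = 0.111) and 0.45 in SR9009 and LPS versus SR9009 (−0.05 to 0.95, edgeR adjusted p = 0.166). Both passed without the SR9009 library of mouse 1, at 0.48 (edgeR adjusted p = 0.0443) and 0.68 (edgeR adjusted p = 0.0168). Per1, the PER gene that also responds to cAMP signals, had 14.2, 30.9, 39.4 and 36.6 CPM with SR9009 and LPS, 5.16, 44.8, 27.3 and 24.5 CPM with SR9009, 27.9, 41.8, 51.4 and 42.2 CPM with LPS and 29.7, 33.3, 26.8 and 22.1 CPM with DMSO. The lowest of these was the SR9009 library of mouse 1. The log2 difference of Per1 was 0.55 in LPS versus DMSO (−0.41 to 1.50, edgeR adjusted p = 0.362), and it passed in a fit of those groups alone (0.54, edgeR adjusted p = 0.0337, where 61.7% of all genes were called) and without mouse 1 (0.69, edgeR adjusted p = 0.0249, where 53.4% were). Cry2 ranged from 6.35 to 15.9 CPM with SR9009 and LPS, 7.53 to 15.8 CPM with SR9009, 12.6 to 19.9 CPM with LPS and 11.4 to 14.9 CPM with DMSO. Its difference in LPS versus DMSO was 0.41 (−0.23 to 1.05, edgeR adjusted p = 0.299), and without mouse 1 it was 0.58 and passed (edgeR adjusted p = 0.0378).

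The activator genes showed no call with LPS. Clock had 59.8, 45.4, 53.3 and 47.5 CPM in the SR9009 and LPS libraries of mice 1 to 4, 147.0, 48.9, 47.8 and 53.9 CPM with SR9009, 42.9, 39.6, 47.6 and 42.7 CPM with LPS, and 52.8, 47.5, 42.8 and 41.8 CPM with DMSO. Apart from the SR9009 library of mouse 1, all 15 libraries lay between 39.6 and 59.8 CPM. The log2 difference of Clock in LPS versus DMSO was −0.10 (95% interval −0.73 to 0.54) and narrowed to −0.11 (−0.36 to 0.14) without that library. Arntl had 25.2, 24.0, 11.3 and 12.7 CPM with SR9009 and LPS, 36.2, 15.1, 12.8 and 13.3 CPM with SR9009, 17.8, 15.7, 9.61 and 7.06 CPM with LPS, and 17.4, 17.5, 12.3 and 14.1 CPM with DMSO. In each group mice 1 and 2 had more Arntl than mice 3 and 4. Its log2 difference was −0.29 in LPS versus DMSO (−1.11 to 0.53, edgeR adjusted p = 0.589), with ratios of 0.03 and −0.15 in mice 1 and 2 and −0.36 and −1.0 in mice 3 and 4.

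Nr1d1, which encodes REV-ERBα (ENSMUSG00000020889, chromosome 11, 98658758 to 98666159, GRCm39), differed between LPS and DMSO in opposite directions in different mice. It had 4.47, 4.06, 4.90 and 6.99 CPM in the SR9009 and LPS libraries of mice 1 to 4, and 8.50, 11.1, 6.08 and 5.18 CPM in the SR9009 libraries. It had 3.00, 2.67, 10.2 and 14.6 CPM in the LPS libraries, against 8.10, 7.58, 7.32 and 7.66 CPM in the DMSO libraries. The DMSO libraries were within 1.11 times of each other, while the LPS libraries spread 5.46 times and split into mice 1 and 2 below all DMSO libraries and mice 3 and 4 above them. The log2 ratios of LPS over DMSO were −1.44 and −1.51 in mice 1 and 2, and 0.48 and 0.93 in mice 3 and 4. The fitted mean difference was −0.01, with an interval from −0.95 to 0.93 (edgeR adjusted p = 0.994). The same mice ran the other way in SR9009 and LPS versus LPS, with log2 ratios of 0.58 and 0.61 in mice 1 and 2 and −1.06 and −1.06 in mice 3 and 4. Both comparisons use the same LPS libraries. Nr1d1 overlaps Thra, the thyroid hormone receptor α gene on the opposite strand, by 1075 bases. Whether counting used strand is not given in the sources used here, so reads in the shared bases cannot be told apart. Thra itself ranged from 12.7 to 19.5 CPM in LPS libraries and from 20.0 to 27.3 CPM in DMSO libraries.

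**Figure D2:**
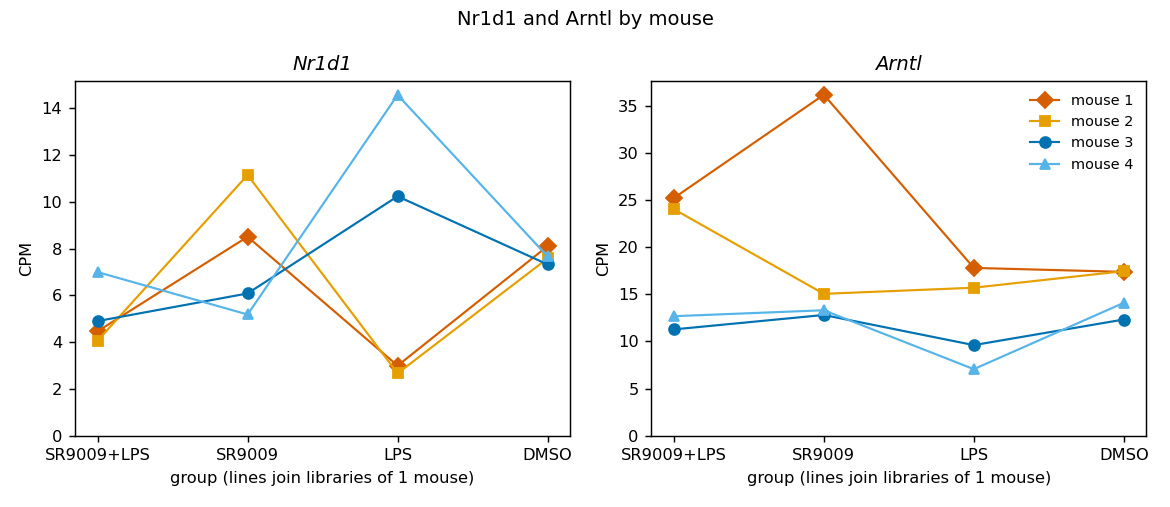
CPM of Nr1d1 and Arntl in the 4 groups, with 1 line for each mouse. In the LPS group Nr1d1 stands at 3.00 and 2.67 CPM in mice 1 and 2 and at 10.2 and 14.6 CPM in mice 3 and 4, and Arntl is higher in mice 1 and 2 than in mice 3 and 4 in every group.

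SR9009 versus DMSO asks what the agonist did to the loop without LPS. Neither REV-ERB gene nor Arntl, the textbook REV-ERB target, passed, and the largest differences among the 9 were in Rora, Per2 and Clock, all on the higher side. By edgeR 0 of 9 genes were called, where 0.878% of all tested genes were; 3 had an unadjusted p under 0.05, all higher, and DESeq2 also called 0. Rora was higher by 1.02 on the log2 scale (95% interval 0.29 to 1.75, edgeR adjusted p = 0.267), with within-mouse ratios of 1.72, 0.54, 0.54 and 0.60. Its SR9009 and DMSO libraries touched only at 21.1 and 21.2 CPM. Per2 was higher by 0.73 (0.17 to 1.29, edgeR adjusted p = 0.3), with ratios of 0.75, 0.92, 0.47 and 0.72, and its groups did not overlap. Per2 was the 1 gene of 9 with separate groups, against 9.54% of all tested genes. Clock was higher by 0.69 (0.05 to 1.32, edgeR adjusted p = 0.406), and this rested on mouse 1: without that library the difference was 0.08 (−0.20 to 0.35, edgeR adjusted p = 0.999).

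The SR9009 library of mouse 1 also set the sign of Nr1d2, Arntl and Per1 in this comparison. With it, Nr1d2 was at 0.36 (−0.35 to 1.06, edgeR adjusted p = 0.719), Arntl at 0.33 (−0.49 to 1.15, edgeR adjusted p = 0.775) and Per1 at −0.13 (−1.09 to 0.82, edgeR adjusted p = 0.921). Without it, Nr1d2 was at −0.27 (−0.71 to 0.16, edgeR adjusted p = 0.819), Arntl at −0.20 (−0.91 to 0.51, edgeR adjusted p = 0.997) and Per1 at 0.16 (−0.48 to 0.81, edgeR adjusted p = 1). The remaining SR9009 libraries held 50.3 to 62.1 CPM of Nr1d2, below the 63.6 to 70.7 CPM of the DMSO libraries. Nr1d2 and Per2 were then the 2 genes of 9 with separate groups, against 18.4% of all tested genes. Rora stayed higher at 0.40 (−0.04 to 0.85, edgeR adjusted p = 0.578) and Per2 at 0.55 (0.03 to 1.07, edgeR adjusted p = 0.442). Again 0 of 9 were called by edgeR, against 1.77% of all genes, and 1 had an unadjusted p under 0.05. Nr1d1, Cry1 and Cry2 lay at 0.01, 0.31 and 0.03 with all libraries, and their intervals all included 0.

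SR9009 and LPS versus LPS asks what the agonist did in LPS-treated cells. By edgeR 0 of 9 genes were called, against 1.79% of all tested genes; 0 had an unadjusted p under 0.05 and DESeq2 called 0. The groups overlapped for all 9 genes, whereas 14.4% of all tested genes had separate groups. In the fit of all libraries with the mouse as a block, Arntl and Cry2 had an unadjusted edgeR p under 0.05. Arntl was at 0.54 (0.03 to 1.06) and Cry2 at −0.64 (−1.22 to −0.07). Neither was called (edgeR adjusted p = 0.256 and 0.226). Without the SR9009 library of mouse 1, which is in neither group but shares in the estimate of the spread, Rora passed as higher (log2 0.71, 0.28 to 1.15, edgeR adjusted p = 0.0371), the 1 call of 9, against 11.5% of all genes. With the mouse as a block as well, Arntl (0.57, edgeR adjusted p = 0.0437) and Rora (0.72, edgeR adjusted p = 0.0306) passed as higher, where 21.3% of all genes were called. With all libraries and no block Rora was at 0.68 (−0.06 to 1.42, edgeR adjusted p = 0.425), and it was higher in mice 1, 3 and 4 and lower in mouse 2. Arntl was higher in 4 of 4 mice, with log2 ratios of 0.50, 0.61, 0.23 and 0.84 (fitted 0.55, −0.28 to 1.37, edgeR adjusted p = 0.61). In a fit of these 2 groups alone with the mouse as a block, a setting chosen after seeing the data, Arntl passed as higher (0.55, edgeR adjusted p = 0.0323) and Cry2 and Per1 as lower (−0.66, edgeR adjusted p = 0.0309, and −0.48, edgeR adjusted p = 0.0473), where 21.8% of all genes were called. Cry2 and Per1 were lower in 4 of 4 mice and Clock and Cry1 higher in 4 of 4, so 5 of 9 genes differed in 1 direction in all mice, against 43.5% of all tested genes. The REV-ERB genes themselves were at −0.58 for Nr1d1 (−1.53 to 0.37) and 0.09 for Nr1d2 (−0.62 to 0.80).

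The SR9009 effect with LPS minus the effect without it was the fifth comparison. By edgeR 0 of 9 genes were called, against 0.00744% of all tested genes; 0 had an unadjusted p under 0.05 and DESeq2 called 0. Per2 had the largest difference of the 9, −0.79 (95% interval −1.59 to 0.01, edgeR adjusted p = 0.702), with a log2 value for SR9009 of −0.06 in cells with LPS and 0.73 in cells without it. With the mouse as a block, the Per2 difference was −0.82 (−1.59 to −0.05). Its unadjusted edgeR p was then 0.0384, and it was not called (edgeR adjusted p = 0.523). With the SR9009 library of mouse 1 left out, 0 of 9 were called, against 0.3% of all genes, and 0 had an unadjusted p under 0.05. The Per2 difference was then −0.57 (−1.30 to 0.15), that of Arntl 0.78 (−0.19 to 1.75, against 0.21 with all libraries) and that of Nr1d2 0.41 (−0.18 to 1.00, against −0.26 with all libraries). All 5 comparisons share libraries, so their values are not independent of one another. The plot of fitted differences sets both fits side by side.

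**Figure D3:**
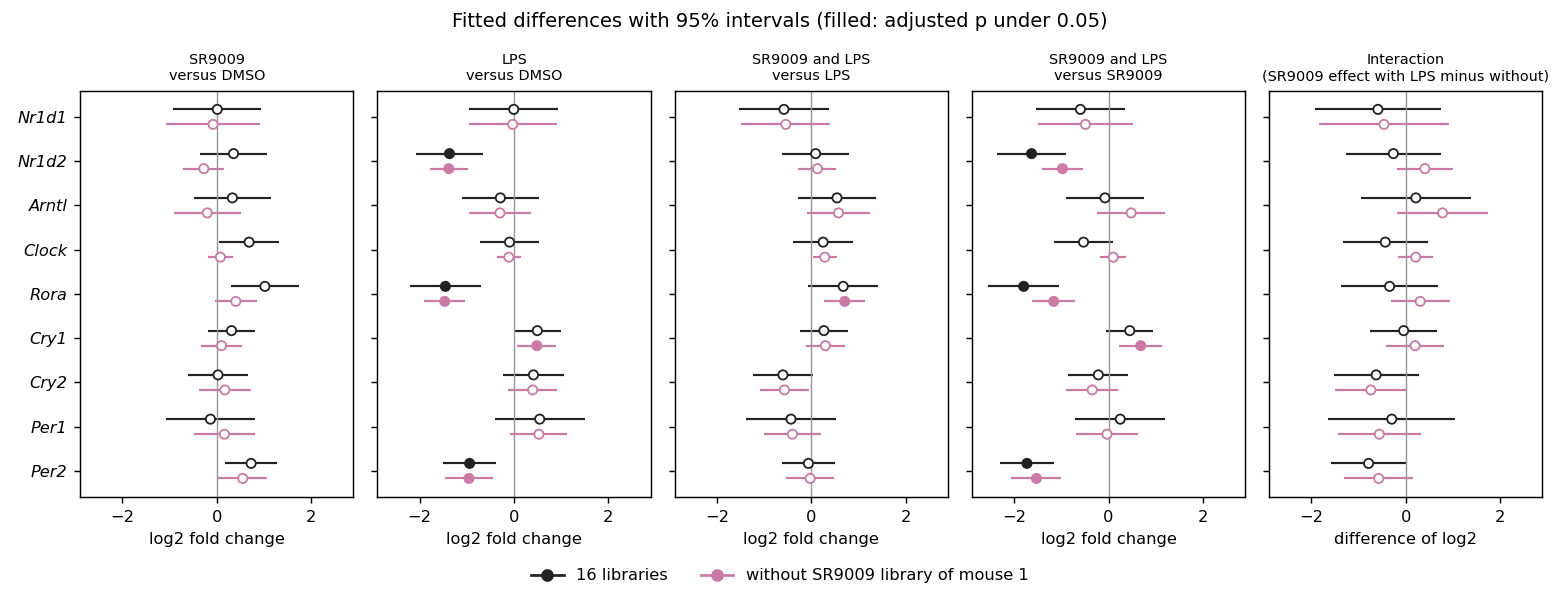
Fitted log2 differences of the 9 genes (rows) in the 5 comparisons (panels) with 95% intervals, from all 16 libraries in black and without the SR9009 library of mouse 1 in pink; filled points passed an edgeR adjusted p of 0.05. Filled points appear for Nr1d2, Rora and Per2 in both LPS comparisons, for Cry1 there without that library, and for Rora in SR9009 and LPS versus LPS without it.

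The SR9009 library of mouse 1 deviated from the other 3 SR9009 libraries according to the GC content of genes. GC content was taken from the longest transcript of each gene and 98.7% of the 13438 tested genes had a value. Over 5 bins of equal size, from the lowest to the highest GC content, the median log2 deviation was 1.21, 0.56, −0.21, −1.23 and −2.46. In the other 15 libraries the lowest and highest bins differed by −0.33 to 0.40, and in that library by 3.67. Nr1d2, Clock and Rora belong to the lowest bin (41.8%, 40.9% and 40.9% GC) and deviated by 1.59, 1.55 and 1.57. Per1, in the highest bin (59.4% GC), deviated by −2.57, close to the median of its bin. Arntl, in the middle bin (48.2% GC), deviated by 1.40, where its bin had a median of −0.21. Nr1d1, in the highest bin (56.8% GC), was at 0.265, where its bin had −2.46. Nr1d2, Clock, Rora and Per1 differed from the median of their bin by −0.11 to 0.38, while Arntl, Cry1, Per2, Cry2 and Nr1d1 lay 1.49 to 2.73 above theirs. The part of GC content in the values of this library was not tested.

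**Figure D4:**
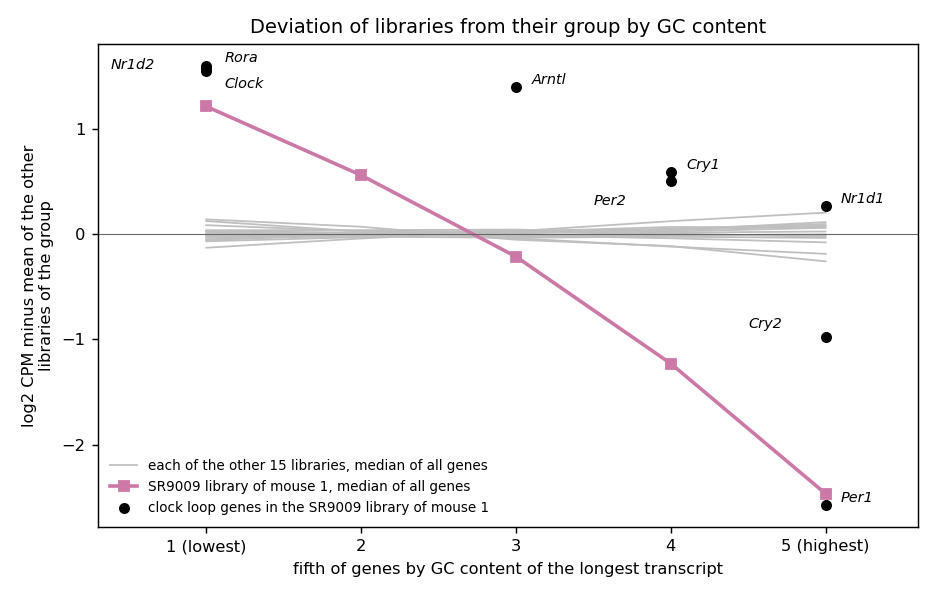
Log2 CPM of a library minus the mean of the other libraries of its group, by GC content bin of genes (5 of equal size). For the group given SR9009 alone, that mean left out the library of mouse 1. Lines are medians over all genes, pink for the SR9009 library of mouse 1 and grey for each of the other 15. Points are the 9 clock loop genes in the SR9009 library of mouse 1. The pink line falls from 1.21 to −2.46 while grey lines stay near 0, and 4 of the 9 points lie from 0.11 below to 0.38 above it.

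Other genes of the pathway were taken from lists written from general knowledge. The 68 genes listed beside the 9 included 64 with enough counts, of which 18 were higher and 14 lower in LPS versus DMSO by edgeR (50%, against 39.8% of all tested genes). The counts were 1 and 1 in SR9009 versus DMSO (Bhlhe40 and Cx3cr1, 3.12% against 0.878%), 0 and 1 in SR9009 and LPS versus LPS (1.56% against 1.79%), and 17 and 6 in SR9009 and LPS versus SR9009 (35.9% against 30.3%). None of the 64 was called by edgeR in the interaction, where 2 had an unadjusted p under 0.05, both lower, and DESeq2 called 1. Leaving out the SR9009 library of mouse 1 gave 23 and 17 in LPS versus DMSO (62.5% against 57.4%) and 1 and 1 in SR9009 versus DMSO (Blvrb and Cx3cr1). It gave 7 and 2 in SR9009 and LPS versus LPS (14.1% against 11.5%) and 24 and 11 in SR9009 and LPS versus SR9009 (54.7% against 43.5%). Among paralogs of the 9, 3 of 5 could be tested and 3 were lower in LPS versus DMSO (Per3, Npas2 and Arntl2). Of all tested genes, 20.4% were called as lower there. With the mouse as a block the call of Arntl2 ended (log2 −2.11, edgeR adjusted p = 0.061). Per3, the third PER gene, had 9.00 ± 7.47 CPM with SR9009 and LPS, 29.8 ± 11.2 CPM with SR9009, 3.21 ± 1.21 CPM with LPS and 27.0 ± 3.04 CPM with DMSO. It fell by 3.07 on the log2 scale with LPS (SE 0.52, edgeR adjusted p = 0.000209) and by 1.73 in SR9009 and LPS versus SR9009 (SE 0.48, edgeR adjusted p = 0.0127), or by 1.48 without the SR9009 library of mouse 1 (edgeR adjusted p = 0.0274). Npas2, which can take the place of CLOCK, had 2 counts over the LPS libraries and 47 over the DMSO libraries, a ratio of 0.0832 after scaling (95% counting interval 0.00979 to 0.318, which covers counting error only). Arntl2, the Arntl paralog, was lower but rare, at 0.167 ± 0.147 CPM with LPS and 0.710 ± 0.276 CPM with DMSO.

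Among 16 genes whose products modify or bind PER and CRY proteins, 6 were higher and 2 lower in LPS versus DMSO (median log2 0.34, against −0.08 over all genes). The 6 included Nono and Timeless, whose products are listed here as binding partners. In SR9009 and LPS versus SR9009, 5 were higher and 2 lower (7 and 2 when the SR9009 library of mouse 1 was left out). Of all tested genes, 30.3% were called in SR9009 and LPS versus SR9009, and 43.5% without that library. With 39.8% of all tested genes called in LPS versus DMSO, 8 of 16 is near that share, and the counts of the next 2 lists lie below it. Csnk1e, a casein kinase gene whose product marks PER for degradation, fell by 0.88 (SE 0.18, edgeR adjusted p = 0.00101). Usp2, which encodes a deubiquitinase of clock proteins, fell by 3.17 (SE 0.34, edgeR adjusted p = 2.79e-06), to 0.834 ± 0.077 CPM with LPS against 7.57 ± 1.24 CPM with DMSO. Btrc and Fbxw11, the β-TrCP ubiquitin ligase genes that act on phosphorylated PER, rose by 0.83 and 1.50, and Csnk1a1 by 1.14. Of 12 genes for REV-ERB corepressors and REV-ERB stability, 2 were higher and 1 lower with LPS (3 and 3 without the SR9009 library of mouse 1, where 57.4% of all genes were called). Siah2, a ubiquitin ligase gene for REV-ERBα, rose by 1.64 (SE 0.29, edgeR adjusted p = 0.000318), Mycbp2, another such ligase gene, rose by 0.82, and Tbl1xr1, a subunit gene of the NCoR complex, fell by 1.46 (SE 0.33, edgeR adjusted p = 0.00252). The corepressor genes Ncor1 (0.23, edgeR adjusted p = 0.424) and Hdac3 (−0.14, edgeR adjusted p = 0.622) did not pass. Of 10 coregulators of BMAL1 and CLOCK, 2 were higher and 0 lower with LPS, with Nampt, the NAD synthesis gene, up by 2.44 (SE 0.28, edgeR adjusted p = 6.88e-06) among them. Of these 10, 2 were higher in SR9009 and LPS versus SR9009 (Nampt and Kmt2a), and 6 without the SR9009 library of mouse 1.

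Of 10 tested genes described as REV-ERB targets, other than the 9, 6 were higher and 2 lower in LPS versus DMSO. Of all tested genes, 39.8% were called there. The share was 0.878% in SR9009 versus DMSO and 1.79% in SR9009 and LPS versus LPS. Without the SR9009 library of mouse 1 these last shares were 1.77% and 11.5%. In SR9009 versus DMSO 1 of the 10 was called, as lower: Cx3cr1, the fractalkine receptor gene, had 186 ± 44.5 CPM with SR9009 and 678 ± 69.8 CPM with DMSO (log2 −1.86, SE 0.38, edgeR adjusted p = 0.0308; −1.81, edgeR adjusted p = 0.0404, without the library of mouse 1). It was at −1.31 in SR9009 and LPS versus LPS (SE 0.38, edgeR adjusted p = 0.0982), where 0 of the 10 were higher and 1 lower with all libraries. When the SR9009 library of mouse 1 was left out, Cx3cr1 (−1.28, edgeR adjusted p = 0.039) passed there as lower and Bhlhe41 (1.33, edgeR adjusted p = 0.0209), a repressor gene, as higher. Of 6 tested clock output genes, Dbp and Tef fell by 3.17 and 3.00 in LPS versus DMSO and Nfil3 and Ciart rose by 2.51 and 2.09. Bhlhe40, a repressor gene of the loop, rose in SR9009 versus DMSO (23.3 ± 3.49 CPM against 8.96 ± 2.17 CPM, log2 1.38, SE 0.30, edgeR adjusted p = 0.0426), a call that ended without the SR9009 library of mouse 1 (1.26, edgeR adjusted p = 0.0549).

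The genes with patterns most like those of the REV-ERB genes and Arntl were found by the root mean square difference in log2 CPM after centring each gene on its mean, for which 9386 protein-coding genes averaging 5 CPM or more were candidates. Over 16 libraries, Nr1d2 was closest to Snx5 (0.159), Crebrf (0.204) and Rmnd5a (0.224), against a median of 1.01 over all candidates. Snx5 (0.124) and Crebrf (0.173) were also closest over the 15 libraries without that of SR9009, mouse 1, followed by Elk3 (0.173). Arntl was closest to Cmc1 (0.200), Pld1 (0.205) and Elac1 (0.221), with a median of 0.832, and over 15 libraries to Elac1 (0.190), Adck2 (0.196) and Galnt1 (0.198). Nr1d1 had no neighbour as close: Bcor (0.380), Akap13 (0.405) and Plpbp (0.411) came first, with a median of 0.855, and over 15 libraries Arrb2 (0.377), Bcor (0.392) and Mrpl12 (0.394). These are descriptions of likeness across libraries that share mice and treatments.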

How the data were processed

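Libraries were made from poly(A) RNA. Per the submitters' processing notes, the aligner was HISAT2 and the genome build GRCm39 (mm39). Its version, the counter, the use of strand and the annotation are not given in the sources read. The authors deposited raw counts per gene for 16 libraries, which were tested, and FPKM values, which the authors scaled from the same counts (per the file headers and the values) and which were used only to compare levels between genes. Total counts were 12616442 to 24214863 per library.

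Counts were fitted in R 4.3.3 with edgeR 4.0.16 (robust quasi-likelihood, 1 mean per group over all 16 libraries, TMM factors 0.738 to 1.26). Of 56748 genes, 13438 passed filterByExpr (minimum count 10, minimum total 15), and p-values were adjusted over all of them by Benjamini-Hochberg, with a threshold of 0.05. The common biological coefficient of variation was 0.377. SE is the log2 fold change over the square root of F, and intervals are 95%. CPM is per TMM-scaled library size, and ± gives the SD. The design text names 4 mice and the titles number them, so same-numbered libraries come from 1 animal. Deviations from group means correlated by 0.0809 to 0.56 (median 0.248) in the 24 same-mouse pairs of libraries. In the 72 pairs from different mice they correlated by −0.567 to 0.522 (median −0.0899), so the ranges overlapped. Where same-mouse pairs correlate, taking deviations from group means itself pulls the other pairs below 0. Mouse as a block was an alternative. No pair of libraries held identical counts.

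Alternatives to TMM were upper-quartile and RLE scaling, and others were no filter (26596 genes), 1 CPM in 4 libraries (12360 genes), DESeq2 1.42.0, the block, the compared groups alone, and each mouse or library left out. Fits without the SR9009 group, and of the compared groups alone with the block or without the SR9009 library of mouse 1, were added after seeing the data. Named genes are the 9, called genes of the pathway lists, the 3 nearest patterns, and uncalled genes of known role given for reference, some of the last chosen after their values were seen. Promoters are from RefSeq (GRCm38.p6), GC content from GENCODE M21. The 9 genes and the lists were chosen with earlier results of these data known. Protein sequences were not used here, and a few genes of the lists are not reported here. The fits were first tested on simulated counts. Other steps used Python 3.11.15 with scipy 1.17.1, pandas 2.3.3, matplotlib 3.10.9 and numpy 2.4.6.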

Additional observations from a re-analysis of the deposited data

Results flagged for a closer look

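In 4 of 36 sets of libraries (9 genes in 4 groups), 1 library lay so far from the other 3 that the gap to the nearest exceeded Dixon's 95% critical value. All 4 were the SR9009 library of mouse 1. Chance alone passes this value in about 1 of 20 sets, but Nr1d2 and Arntl were known to stand apart in this library when the genes were chosen, so the 4 are given as a description. It had 174.8 CPM of Nr1d2, where the next highest SR9009 library had 62.1 CPM, and 36.2 CPM of Arntl, where the next had 15.1 CPM. It had 147.0 CPM of Clock, where the next had 53.9 CPM, and 69.8 CPM of Rora, where the next had 25.8 CPM. Nr1d2, Clock and Rora are among the genes of lowest GC content, which were higher in this library as a class (median log2 deviation 1.21), and Arntl is in the middle of 5 bins, whose median was −0.21. This library also had the lowest total count and the highest mitochondrial share (1.64%). The part of these features in the 4 values was not tested.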

How the results depend on the processing

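The calls of Nr1d2 and Rora in LPS versus DMSO and of Nr1d2, Rora and Per2 in SR9009 and LPS versus SR9009 held under all 30 alternatives, and that of Per2 in LPS versus DMSO under 28 (edgeR or DESeq2 adjusted p at most 0.0652). Of 1323 values of single genes under the alternatives, 1222 kept their direction and their side of the threshold, 16 newly passed, 2 no longer passed and 83 changed sign. None that changed sign passed (smallest adjusted p 0.182), and the cause of each change was not tested. The number of the 9 genes called in SR9009 and LPS versus LPS was 0, but 2 (Arntl and Rora) with the replicate block and without the SR9009 library of mouse 1, and 3 (Arntl, Cry2 and Per1) in a fit of those groups alone with the block, a setting added after seeing the data. Leaving out mice or libraries 1 at a time gave 2 to 5 calls in LPS versus DMSO (5 without mouse 1) and 0 to 1 in SR9009 and LPS versus LPS (Rora, without the SR9009 library of mouse 1). The replicate block with all libraries and groups changed no call of the 9 genes. In the same fit, 535 genes were called in SR9009 and LPS versus LPS, against 241 without the block, 198 against 118 in SR9009 versus DMSO, and 15 against 1 in the interaction. The log2 values that changed sign follow. For SR9009 versus DMSO they were Nr1d1 −0.00473 and Cry2 −0.00708 with RLE scaling and Nr1d1 −0.0386 and Cry2 −0.0152 with no filter. For SR9009 versus DMSO they also were Nr1d1 −0.00813 and Cry2 −0.00654 in DESeq2 and Cry2 −0.0463 with the replicate block (mouse as a factor). For SR9009 versus DMSO they also were Nr1d1 −0.025 and Cry2 −0.00736 with the compared groups fitted alone and Nr1d1 −0.14, Nr1d2 −0.20 and Arntl −0.0384 with the replicate block and without the SR9009 library of mouse 1. For SR9009 versus DMSO they also were Nr1d1 −0.0861 and Cry2 −0.0514 with the compared groups fitted alone and the replicate block and Nr1d1 −0.0663, Nr1d2 −0.26, Arntl −0.19 and Per1 0.17 with the compared groups fitted alone without the SR9009 library of mouse 1. For LPS versus DMSO they were Nr1d1 0.0299 with RLE scaling and Nr1d1 0.0257 in DESeq2. For SR9009 and LPS versus LPS they were Per2 0.00753 with upper-quartile scaling. For SR9009 and LPS versus SR9009 they were Arntl 0.24 and Clock 0.0386 with the replicate block and without the SR9009 library of mouse 1 and Arntl 0.48, Clock 0.10 and Per1 −0.0319 with the compared groups fitted alone without the SR9009 library of mouse 1. For the interaction they were Cry1 0.00187 with upper-quartile scaling and Cry1 0.0498 with no filter. For the interaction they also were Nr1d2 0.28, Clock 0.14, Rora 0.27 and Cry1 0.14 with the replicate block and without the SR9009 library of mouse 1. Leaving out mice or libraries in turn changed the sign of other values, here as their lowest and highest log2. The ranges for SR9009 versus DMSO were Arntl −0.20 to 0.50, Cry2 −0.13 to 0.25, Nr1d1 −0.23 to 0.16, Nr1d2 −0.27 to 0.54 and Per1 −0.56 to 0.19. The ranges for LPS versus DMSO were Nr1d1 −0.53 to 0.27. The ranges for SR9009 and LPS versus LPS were Nr1d2 −0.16 to 0.26 and Per2 −0.28 to 0.12. The ranges for SR9009 and LPS versus SR9009 were Arntl −0.34 to 0.48, Clock −0.71 to 0.10 and Per1 −0.0326 to 0.67. The ranges for the interaction were Clock −0.59 to 0.21, Cry1 −0.21 to 0.21, Nr1d2 −0.51 to 0.41, Per1 −0.56 to 0.13 and Rora −0.61 to 0.31. Only 4 libraries per group limit the precision, and the smallest count of any of the 9 genes was 35 (Nr1d1 in the LPS library of mouse 2).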

Other observations

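Heme, the ligand of REV-ERB, is made and broken down by enzymes with 12 genes in the list. With LPS 3 of the 12 were higher and 5 lower than with DMSO by edgeR, where 39.8% of all tested genes were called (median log2 −0.62, against −0.08 over all tested genes), and 3 and 0 in SR9009 and LPS versus SR9009, where 30.3% were called. Leaving out the SR9009 library of mouse 1 gave 3 and 4 there, where 43.5% were called, with Alad (−0.78, edgeR adjusted p = 0.0024), Urod (−0.69, edgeR adjusted p = 0.00154) and Blvra (−0.70, edgeR adjusted p = 0.000668) among the 4. Alas1, the rate-limiting first enzyme of synthesis, had 302 ± 35.9 CPM with LPS and 92.6 ± 6.71 CPM with DMSO (log2 1.71, SE 0.20, edgeR adjusted p = 8.6e-06). The later synthesis genes Alad, Urod and Fech fell by 1.49, 0.97 and 0.89. Hmox1, the inducible heme oxygenase that degrades heme, had 1150 ± 445 CPM with LPS and 204 ± 18.2 CPM with DMSO (log2 2.50, SE 0.75, edgeR adjusted p = 0.0146), and Hmox2 rose by 0.95. Blvra, which reduces the breakdown product biliverdin, fell by 0.70. With SR9009 and LPS, Hmox1 reached 2010 ± 1870 CPM, a spread nearly as large as its mean. By edgeR with all libraries, 0 of 12 passed in SR9009 versus DMSO, where DESeq2 called 0 and 1 had an unadjusted p under 0.05 (Cpox, higher). Likewise 0 of 12 passed in SR9009 and LPS versus LPS, where DESeq2 called 0, and 2 had an unadjusted p under 0.05 (Fech higher and Hmox2 lower). Of all tested genes, 0.878% were called in SR9009 versus DMSO and 1.79% in SR9009 and LPS versus LPS. Without the SR9009 library of mouse 1, Blvrb was higher in SR9009 versus DMSO (log2 0.84, edgeR adjusted p = 0.0342), where 1.77% of all genes were called. Without that library 5 of the 12 were higher and 0 lower in SR9009 and LPS versus LPS, where 11.5% of all genes were called. Those higher included Alad (0.87, edgeR adjusted p = 0.00597), Cpox (0.66, edgeR adjusted p = 0.0323), Fech (0.56, edgeR adjusted p = 0.021) and Blvrb (0.70, edgeR adjusted p = 0.02).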
